A study of Mus musculus with 16 samples.

Results

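A set of 10 regulators of the primitive streak and of early mesoderm were followed through blood cell differentiation in Sp1+/+ and Sp1-/- mouse ES cells. They are the transcription factors Mixl1, Eomes, Mesp1, Evx1, Tbx6, Hand1, Foxf1, Tbx3 and Etv2 and the receptor Pdgfra. They were chosen as a list of named genes, with earlier results of these data known. Matching was through the RefSeq accession of each probe, and the probe brightest on average over all 16 arrays stood for a gene. All 10 were on the array and all 10 were among the 37154 genes and unnamed targets tested. The RNA came from 4 cell populations of each genotype, with 2 replicates each, on 16 Agilent arrays of 1 color. Sp1+/+ cells are E14 ES cells, and Sp1-/- cells are 1 ES clone whose altered Sp1 locus gives a truncated protein that lacks the DNA-binding domain. The labels give the strain as C57BL/6 for both and name no treatment. Flk1+ cells were taken from embryoid bodies with magnetic beads against Flk1, the surface receptor encoded by Kdr. They were then grown in blast culture, from which HE1 (KIT+ CD41- Tie2+), HE2 (KIT+ CD41+ Tie2+) and progenitors (KIT+ CD41+ Tie2-) were sorted, with floating and adherent cells combined. ES cells had been kept on primary fibroblast feeders and were passaged without them before use.

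In the gastrulating embryo, epiblast cells move through the primitive streak under Nodal, Wnt and Fgf signals and leave it as mesoderm or endoderm. Mixl1, Eomes, Mesp1 and Evx1 are expressed in the streak or in the mesoderm just leaving it, while Tbx6 marks the paraxial and Hand1, Foxf1 and Tbx3 the lateral and extra-embryonic parts of the mesoderm. Etv2 is an ETS factor required for the blood and endothelial lineages, and Pdgfra is a receptor for platelet-derived growth factor found on early mesoderm. Flk1+ cells of embryoid bodies are mesoderm that can form blood, endothelium and muscle, and HE1, HE2 and progenitors are successive steps from endothelium to blood.

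Sp1 is a zinc finger factor that binds GC boxes and the related GT boxes, so the stretch before the start site is shown for 3 streak factors that fell steeply after the Flk1+ stage and had an entry in the sequence table. The sequences are from RefSeq (GRCm38.p6), which had an entry for 6 of the 10 genes, and cover the 250 bases before a transcript start in the direction of transcription. They lie at chr9:118477939-118478188 on the plus strand for Eomes, at chr7:79793591-79793840 on the minus strand for Mesp1 and at chr6:52313248-52313497 on the plus strand for Evx1. Capitals mark a GT box or a CCAAT box.
Eomes: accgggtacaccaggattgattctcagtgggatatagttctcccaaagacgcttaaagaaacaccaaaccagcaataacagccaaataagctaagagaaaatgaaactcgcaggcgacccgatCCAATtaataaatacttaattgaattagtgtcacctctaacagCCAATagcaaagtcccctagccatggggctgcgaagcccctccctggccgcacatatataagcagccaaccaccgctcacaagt
Mesp1: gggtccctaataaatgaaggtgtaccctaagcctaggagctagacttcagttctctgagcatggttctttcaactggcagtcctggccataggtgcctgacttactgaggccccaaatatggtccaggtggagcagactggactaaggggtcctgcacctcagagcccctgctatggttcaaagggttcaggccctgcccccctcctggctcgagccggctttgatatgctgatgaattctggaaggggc
Evx1: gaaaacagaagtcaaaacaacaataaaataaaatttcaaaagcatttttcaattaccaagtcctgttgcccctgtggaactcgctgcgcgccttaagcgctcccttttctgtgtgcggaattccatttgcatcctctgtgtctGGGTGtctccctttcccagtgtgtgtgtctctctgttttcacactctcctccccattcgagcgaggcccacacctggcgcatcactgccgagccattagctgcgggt
The motifs searched on both strands were the GC box GGGCGG, the GT box CACCC, the CCAAT box CCAAT and the T-box site AGGTGTGA. None of the 6 stretches held the GC box, which 32.7% of all 32851 promoters of the same length held. The GT box was in 3 of the 6 (Evx1, Etv2 and Pdgfra) against 52% of all promoters, and the CCAAT box was in 2 (Eomes and Etv2) against 33.8%. The T-box site, the target of Eomes, Tbx3 and Tbx6, was in none of the 6 and in 1.12% of all promoters. Of a list of 25 other gastrulation genes, described below, 18 had an entry. Among these 18 the GC box was found for 12, the GT box for 12 and the CCAAT box for 9. The stretches of Etv2 and Pdgfra lie wholly within the range of their own gene, before a transcript start inside it. In the 6 stretches of the regulators no match overlapped a match of another motif. These are letter matches in a short window and say nothing of binding.

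Each genotype had a slide to itself and came from its own ES cells, with 1 clone for Sp1-/-. A difference between genotypes therefore cannot be told apart from one between the 2 slides or between the ES lines. Each step between populations, in contrast, lies within 1 slide and 1 genotype. Between 67.0% and 77.1% of the spots were well above background on an array. The replicates are described as biological in the deposited record and in the study's results. A legend of the supplement speaks of averaged technical replicates without saying which arrays are meant. It is thus unclear what their spread covers, and p-values measure the spread between these arrays alone. Sp1 itself was between 12.14 and 12.56 on the deposited log2 scale on the Sp1+/+ arrays and between 9.03 and 10.29 on the Sp1-/- arrays. Its probe was not placed relative to the deleted part of the locus. Kdr stayed between 13.56 and 15.37 on all arrays. Kit, which encodes KIT, was at most 11.035 in Flk1+ cells and at least 11.43 in every later population. Tek, which encodes Tie2, was at most 8.15 in Flk1+ cells, at least 11.65 in HE1 and at most 9.62 in progenitors, and Itga2b, which encodes CD41, was at most 8.3 in Flk1+ cells and at least 10.6 in every later population.

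Most of the regulators were highest in Flk1+ cells and fell by HE1. A gene was called at an unadjusted limma p of 0.01 or less with a change of at least 2-fold. By this rule 9 of the 10 members fell from Flk1+ to HE1 in Sp1+/+ cells, where 3.89% of all genes were called lower, and the same 9 fell in Sp1-/- cells, where 4.87% were. The median change of the 10 was -3.59 on the log2 scale in Sp1+/+ cells and -4.10 in Sp1-/- cells. The exception was Tbx6, by the probe that stood for it.

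**Figure D1:**
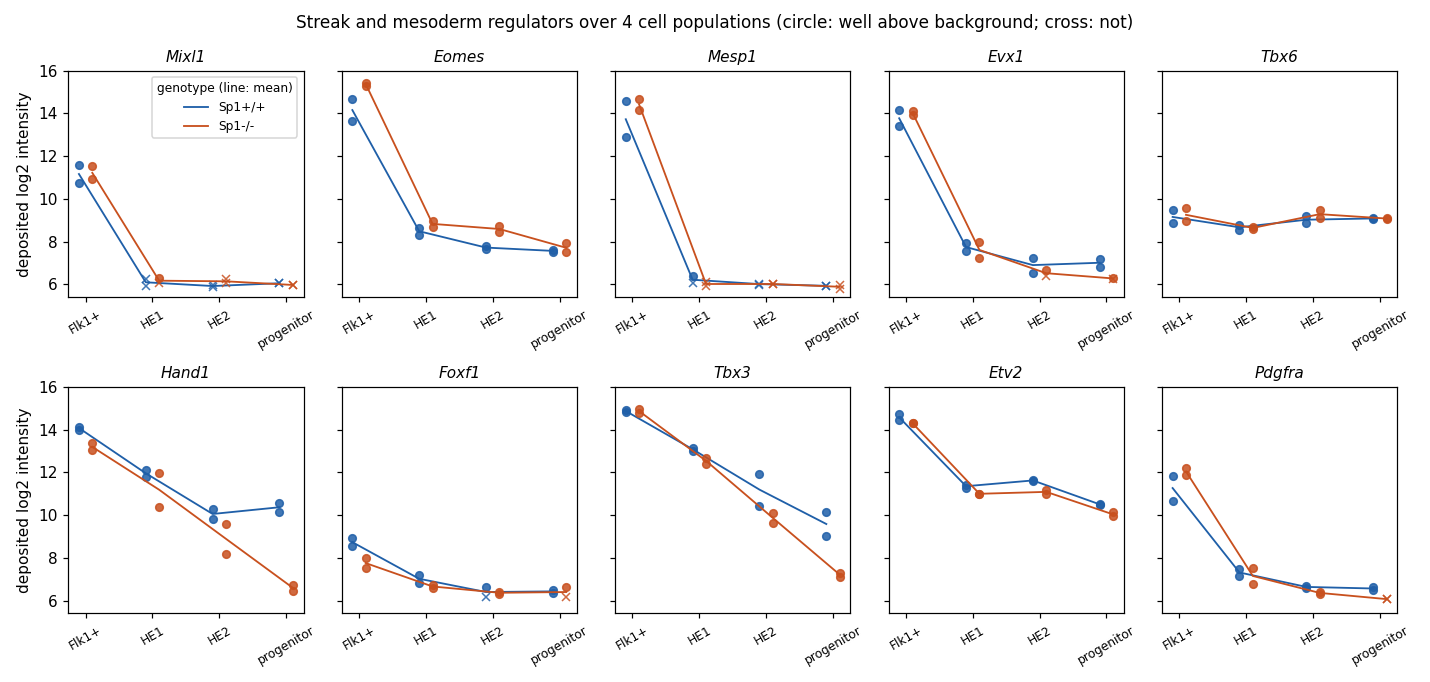
Deposited log2 intensity (vertical axis) of the 10 regulators in Flk1+ cells, HE1, HE2 and progenitors (horizontal axis), 1 point per array, with lines through the means of 2 replicates for Sp1+/+ (blue) and Sp1-/- (orange). Crosses mark arrays where the probe was not well above background. Mixl1 and Mesp1 drop to about 6, where nearly all points are crosses, while Hand1 and Tbx3 decline in steps and end lower in Sp1-/- progenitors.

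Mesp1, a basic helix-loop-helix factor of nascent cardiovascular mesoderm, showed the steepest fall. Its log2 intensity in Sp1+/+ cells was 14.57 and 12.89 at the Flk1+ stage, 6.05 and 6.38 for HE1, 5.99 and 6.03 for HE2, then 5.92 and 5.94 for progenitors. The Sp1-/- values were 14.68 and 14.16 at the Flk1+ stage and between 5.80 and 6.09 on all 6 later arrays. After the Flk1+ stage it was well above background on 1 array only, a Sp1+/+ HE1 replicate. The fall to HE1 was thus at least 327-fold in Sp1-/- cells (adjusted p = 1.30e-07). In Sp1+/+ cells it came to -7.52 on the log2 scale (adjusted p = 2.87e-07), a value set partly by the floor, since only 1 of the 2 HE1 arrays was above background.

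Mixl1, a homeobox factor of the streak, behaved in the same way at a lower level. It was 11.6 and 10.73 in Sp1+/+ Flk1+ cells and 11.52 and 10.92 in Sp1-/- Flk1+ cells. In the later populations it lay between 5.86 and 6.28 and was well above background on 1 of 12 arrays. The fall to HE1 was at least 33.0-fold in Sp1+/+ cells (adjusted p = 2.11e-07) and came to -5.05 on the log2 scale in Sp1-/- cells (adjusted p = 1.97e-07), where 1 of the 2 HE1 arrays was above background. Below background the order of HE1, HE2 and progenitors cannot be read.

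Eomes, a T-box factor needed for cells to leave the streak, and the homeobox factor Evx1 also fell steeply, and both were still well above background in HE1. Eomes was 14.67 and 13.65 in Sp1+/+ Flk1+ cells, 8.33 and 8.64 for HE1, 7.66 and 7.78 for HE2, then 7.51 and 7.62 for progenitors. The step to HE1 was -5.68 ± 0.27 (SE, adjusted p = 1.44e-07), and the next steps, -0.77 and -0.16, were not called. The Sp1-/- values of Eomes were 15.45 and 15.31, 8.96 and 8.70, 8.71 and 8.47, and 7.93 and 7.49 in the same order, and again only the step to HE1 was called (-6.55, adjusted p = 5.94e-08). Evx1 went from 14.14 and 13.41 in Sp1+/+ Flk1+ cells to 7.93 and 7.56 for HE1, 7.25 and 6.55 for HE2, then 7.19 and 6.83 for progenitors. With Sp1 mutated it went from 14.12 and 13.94 to 7.98 and 7.24, then 6.66 and 6.38, then 6.26 and 6.29, and there the step from HE1 to HE2 was also called (-1.09, adjusted p = 0.0289; -2.73 from the processed signal of the scanner, which carries no offset). Evx1 was not well above background on 1 of the Sp1-/- HE2 and 1 of the Sp1-/- progenitor arrays. That step differed from -0.85 in Sp1+/+ cells, which was not called, by less than the SE of either (0.31). It was not called when the fit held the HE1 and HE2 arrays of Sp1-/- cells alone, or without Sp1-/- HE1 replicate 1 (-0.72) or Sp1-/- HE2 replicate 2 (-0.95), and the Sp1+/+ step was called without Sp1+/+ HE2 replicate 1 (-1.20).

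Pdgfra followed the streak factors. Its log2 intensity was 11.85 and 10.68 in Sp1+/+ Flk1+ cells and 7.47 and 7.16 in HE1, a change of -3.95 ± 0.32 (SE, adjusted p = 5.91e-06). The Sp1-/- values were 12.22 and 11.87 for Flk1+ cells and 7.52 and 6.79 for HE1 (-4.89, adjusted p = 1.31e-06). It then stayed between 6.07 and 6.68, and in Sp1-/- progenitors neither array was well above background. Pdgfra has 10 spots of 1 probe on the array, which were averaged.

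Hand1 and Tbx3 came down in steps rather than at once. Hand1, a basic helix-loop-helix factor of lateral and extra-embryonic mesoderm, was 14.01 and 14.15 in Sp1+/+ Flk1+ cells, 12.12 and 11.80 for HE1, 10.29 and 9.82 for HE2, then 10.57 and 10.17 for progenitors. The first steps were called (-2.12, adjusted p = 0.00724, and -1.91, adjusted p = 0.0289), and the levels in HE2 and progenitors overlapped. In Sp1-/- cells Hand1 was 13.03 and 13.36, 11.98 and 10.40, 9.58 and 8.20, and 6.73 and 6.46, with all 3 steps called (-2.01, -2.30 and -2.30, adjusted p = 0.00911, 0.00685 and 0.00911). Single arrays decided some of these calls. The first Sp1+/+ step was not called without HE1 replicate 2 (-1.96), nor the second without HE1 replicate 1 (-1.75) or HE2 replicate 2 (-1.67), and the first Sp1-/- step was not called without Flk1+ replicate 2 (-1.84) or HE1 replicate 2 (-1.22).

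Tbx3, a T-box repressor, was 14.92 and 14.83 in Sp1+/+ Flk1+ cells, 13.02 and 13.15 for HE1, 10.45 and 11.94 for HE2, then 10.14 and 9.03 for progenitors. The Sp1-/- values were 14.76 and 14.98, 12.40 and 12.69, 10.09 and 9.65, and 7.31 and 7.12, with no overlap between neighboring populations in either genotype. All 3 steps were called in both genotypes, at -1.79, -1.89 and -1.61 in Sp1+/+ cells and -2.33, -2.68 and -2.66 in Sp1-/- cells. The last Sp1+/+ step had an adjusted p of 0.0757 by limma and was not called without HE2 replicate 2 (-0.87) or progenitor replicate 2 (-1.06), and the first was not called without HE1 replicate 1 (-1.73).

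Foxf1, a forkhead factor of lateral mesoderm, was dim throughout. It was 8.93 and 8.54 in Sp1+/+ Flk1+ cells and 7.21 and 6.83 in HE1 (-1.72, adjusted p = 0.000154), and 7.52 and 7.99 in Sp1-/- Flk1+ cells and 6.71 and 6.61 in HE1 (-1.10, adjusted p = 0.00303). In HE2 and progenitors it lay between 6.17 and 6.63 in both genotypes, and 1 array in Sp1+/+ HE2 and 1 in Sp1-/- progenitors was not well above background. Without Sp1-/- Flk1+ replicate 2, the Sp1-/- fall to HE1 was -0.86 and was not called.

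Etv2 was well above background on all 16 arrays, as were Eomes, Tbx6, Hand1 and Tbx3. It was 14.72 and 14.44 in Sp1+/+ Flk1+ cells, 11.42 and 11.29 for HE1, 11.59 and 11.66 for HE2, then 10.48 and 10.53 for progenitors. The Sp1-/- values were 14.31 and 14.30, 11.01 and 10.99, 11.20 and 10.98, and 10.13 and 9.94. The falls to HE1 (-3.23 ± 0.11 SE in Sp1+/+ and -3.31 in Sp1-/- cells, adjusted p = 2.10e-08 and 2.18e-08) and from HE2 to progenitors (-1.12 and -1.06, adjusted p = 0.000371 and 0.000151) were called, and the step from HE1 to HE2 was not (0.27 and 0.09). The second Etv2 probe gave -3.22 and -3.63 for the first of these steps and -1.07 in both genotypes for the last. Without Sp1-/- HE2 replicate 1 (-0.95) or progenitor replicate 2 (-0.96), the last Sp1-/- fall was just short of 2-fold.

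For Tbx6, a T-box factor of paraxial mesoderm, the pair of probes disagreed. The brighter one lay between 8.56 and 9.56 on all 16 arrays, and none of its population steps was called (-0.49 and -0.62 from Flk1+ to HE1). The other was dimmer by its mean over the 16 arrays, but in Flk1+ cells it was the higher of the pair on every array. This dimmer probe was 10.79 and 9.42 in Sp1+/+ Flk1+ cells and 7.86 and 7.58 in HE1. In Sp1-/- cells it was 11.08 and 10.5 at the Flk1+ stage and 7.77 and 7.63 in HE1. By that probe Tbx6 fell like the other regulators, by -2.39 ± 0.34 (SE, adjusted p = 0.000356 over 55595 probes) in Sp1+/+ and by -3.09 (adjusted p = 4.95e-05) in Sp1-/- cells. With the mean of both probes the falls were -1.44 and -1.85 and were called. In all other paragraphs the value of Tbx6 is that of the brighter probe.

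**Figure D2:**
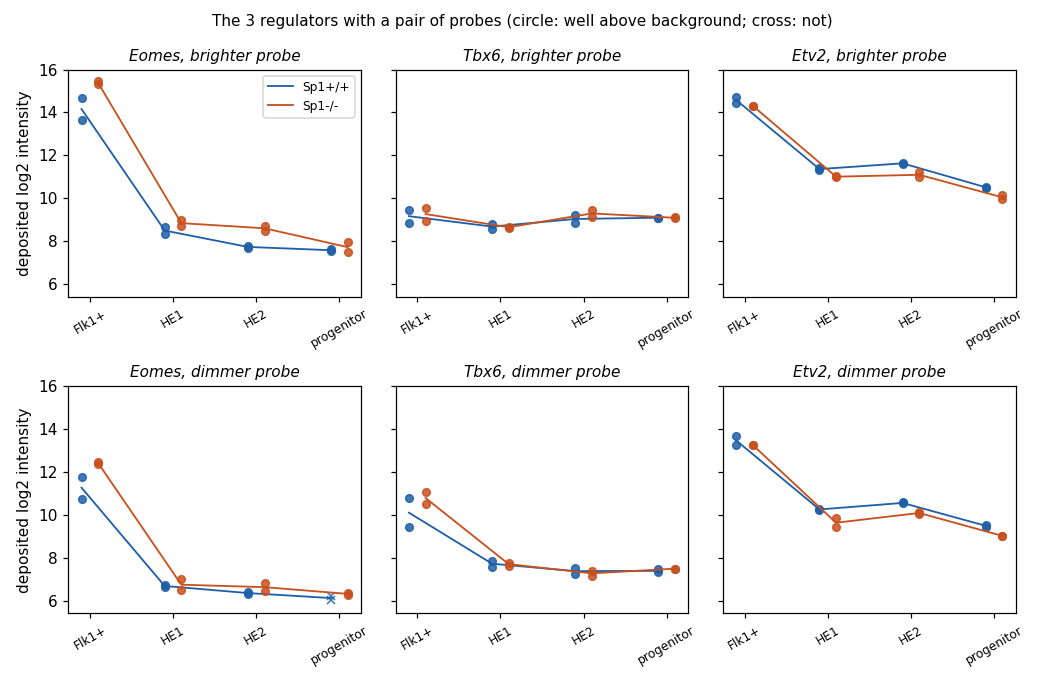
Deposited log2 intensity (vertical axis) by population (horizontal axis) for the brighter (top) and dimmer (bottom) probe of Eomes, Tbx6 and Etv2, drawn as in the plot of all 10 regulators. Both probes of Eomes and of Etv2 drop after the Flk1+ stage, whereas for Tbx6 only the dimmer one does, from between 9.42 and 11.08 to between 7.15 and 7.86.

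After HE1 fewer regulators changed. From HE1 to HE2, 2 of 10 were called lower in Sp1+/+ cells (Hand1 and Tbx3, against 2.23% of all genes) and 3 in Sp1-/- cells (Evx1, Hand1 and Tbx3, against 3.53%). From HE2 to progenitors 2 were called lower in Sp1+/+ cells (Tbx3 and Etv2, against 0.724%) and 3 in Sp1-/- cells (Hand1, Tbx3 and Etv2, against 2.67%). No regulator was called higher at any step. With Benjamini-Hochberg adjustment at 0.05, the count from HE2 to progenitors in Sp1+/+ cells was 1 (Etv2).

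In Flk1+ cells 1 of the 10 differed between the genotypes: Eomes was higher in Sp1-/- cells. Among all genes 1.64% were called in this comparison, in either direction. Eomes was 15.45 and 15.31 on the Sp1-/- arrays and 14.67 and 13.65 on the Sp1+/+ arrays, so that both Sp1-/- values lay above both Sp1+/+ values. The difference was 1.22 ± 0.27 (SE), or 2.33-fold, with an adjusted p of 0.0211. The second Eomes probe gave 1.15 ± 0.27 (SE, adjusted p = 0.0327 over 55595 probes). The size depends on the lower Sp1+/+ replicate: without Sp1+/+ Flk1+ replicate 2 it was 0.71 and not called, and without replicate 1 it was 1.73. It was also not called from the processed signal (0.87) or when the 4 Flk1+ arrays were fitted alone (1.22, adjusted p = 0.15).

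The other regulators of Flk1+ cells did not pass the rule, and their intervals differ in what they leave possible. Mixl1 differed by 0.06 (95% interval -0.50 to 0.61), Evx1 by 0.26 (-0.42 to 0.93), Tbx3 by -0.01 (-0.94 to 0.93) and Tbx6, by its brighter probe, by 0.10 (-0.40 to 0.60). Differences of 2-fold, or 1 on the log2 scale, lie outside these 4 intervals, which rest on the spread pooled over all 8 groups. For Mixl1 the replicate SD was 0.62 and 0.42 in Sp1+/+ and Sp1-/- Flk1+ cells, and at most 0.22 in the later populations, near the floor. Where the Flk1+ spread exceeds the pooled one, 2-fold is thus not excluded. By the dimmer probe Tbx6 differed by 0.69 (-0.06 to 1.43), which leaves 2-fold possible. Mesp1 (0.69, -0.17 to 1.55), Pdgfra (0.78, 0.07 to 1.48) and Hand1 (-0.89, -1.96 to 0.19) could differ by 2-fold. Foxf1 was lower on both Sp1-/- arrays, by -0.98 ± 0.22 (SE, adjusted p = 0.0232), just short of 2-fold, and from the scanner intensities corrected with an offset of 16 it was called at -1.11. It was also called without Sp1-/- Flk1+ replicate 2 (-1.22). Etv2 was lower on both Sp1-/- arrays by -0.28 (-0.53 to -0.02, adjusted p = 0.2). The median over the 10 was 0.08, against 0.01 over all genes.

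**Figure D3:**
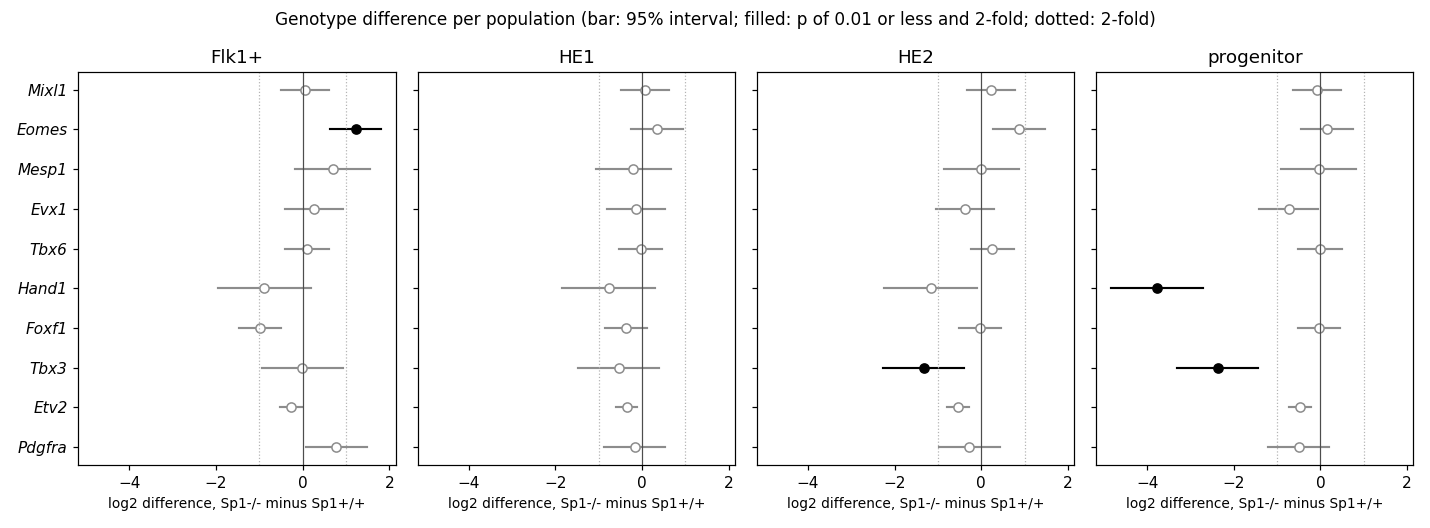
Log2 difference between Sp1-/- and Sp1+/+ cells (horizontal axis) for the 10 regulators (vertical axis) in each population, with 95% intervals from limma. Filled points passed a p of 0.01 or less and 2-fold; they are Eomes in Flk1+ cells, Tbx3 in HE2, and Hand1 and Tbx3 in progenitors.

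The Flk1+ replicates of 1 genotype differed from each other more in several of these genes than in most others. Replicate 2 was lower than replicate 1 by 1.68 for Mesp1, 1.17 for Pdgfra, 1.02 for Eomes, 0.87 for Mixl1 and 0.73 for Evx1 in Sp1+/+ cells, where the SD of this difference over all genes was 0.27. Tbx6 (-0.61), Foxf1 (-0.39) and Etv2 (-0.28) were also lower there, while Tbx3 (-0.09) and Hand1 (0.14) lay within that SD. In Sp1-/- cells the first 5 genes were lower in replicate 2 by 0.52, 0.35, 0.14, 0.60 and 0.18, and Foxf1 (0.47), Hand1 (0.33) and Tbx3 (0.22) were higher, against an SD of 0.24 over all genes. Genes of the later stages went the other way in Sp1+/+ cells, with Kit higher in replicate 2 by 1.13, Tek by 0.99 and Itga2b by 0.93; in Sp1-/- cells these were 0.04, 0.90 and 0.44. Without Sp1+/+ Flk1+ replicate 1, the difference between the genotypes was called for 3 regulators (Eomes at 1.73, Mesp1 at 1.53 and Pdgfra at 1.36), and without replicate 2 for 1 (Foxf1 at -1.18). How far along each culture was when the cells were taken was not tested.

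Other genes of gastrulation were examined as a list of 25. The list was chosen with earlier results of these data known, so the share called among them is a description. In Flk1+ cells 6 of the 25 were called higher in Sp1-/- cells, against 0.775% of all genes, and none lower, with a median of 0.41 against 0.01 over all genes. The 6 comprise signals and factors of the streak and its anterior part: Fgf8, a signal of the streak; Nodal, the ligand that induces mesendoderm, and Lefty2, its inhibitor; Lhx1 and Gsc, homeobox factors of the anterior streak; and Mesp2, the neighbor and relative of Mesp1. Lhx1 was 12.28 and 11.72 on the Sp1-/- arrays and 10.61 and 9.01 on the Sp1+/+ arrays (2.19 ± 0.38 SE, adjusted p = 0.0062). Lefty2 was 12.5 and 11.44 against 11.02 and 9.17 (1.88 ± 0.47 SE, adjusted p = 0.0373). Fgf8 was 13.55 and 12.64 against 11.61 and 11.09 (1.75 ± 0.25 SE, adjusted p = 0.00232). None of these 3 genes overlapped between the genotypes. With 2 arrays per group, genes that were not called, such as Kdr and Kit in Flk1+ cells, did not overlap either. The share of all genes without overlap was not counted.

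Mesp2 was 10.53 and 9.92 against 9.55 and 7.82 (1.54 ± 0.42 SE, adjusted p = 0.0539), and Gsc was 12.71 and 11.39 against 11.32 and 10.32 (1.23 ± 0.37 SE, adjusted p = 0.0747). Nodal was 10.68 and 9.89 against 9.11 and 9.18 (1.14 ± 0.21 SE, adjusted p = 0.00804). The Sp1-/- values lay above the Sp1+/+ values for all 3 as well, for Gsc by 0.07 only. T, the T-box factor that defines the streak, did not differ (12.48 in both means, difference -0.01, SE 0.19). Leaving out Sp1+/+ Flk1+ replicate 2 ended the calls of Gsc (0.73), Mesp2 (0.68) and Lefty2 (0.95). Leaving out Sp1-/- Flk1+ replicate 1 ended those of Gsc (0.57), Mesp2 (1.24), Lefty2 (1.35) and Nodal (0.75), and leaving out either Sp1-/- progenitor array also ended that of Gsc (1.23 in both cases). Lhx1 stayed called without any 1 array, but ran from 1.39 without Sp1+/+ Flk1+ replicate 2 to 2.99 without replicate 1. When the 4 Flk1+ arrays were fitted alone, Lhx1, Lefty2, Gsc and Mesp2 were not called, and from the processed signal Gsc (1.05) and Mesp2 (1.66) were not. The blood and endothelial factors Tal1, Lmo2 and Gata2, in the same list, were lower on both Sp1-/- arrays by -0.68, -0.94 and -0.80, under 2-fold, with adjusted p of 0.085, 0.0463 and 0.0589. In HE1 and HE2 none of the 25 was called between the genotypes in either direction, and in progenitors 5 were called lower, against 2.6% of all genes (Snai1, Gata6, Tbx20, Pdgfa and Pdgfc).

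**Figure D4:**
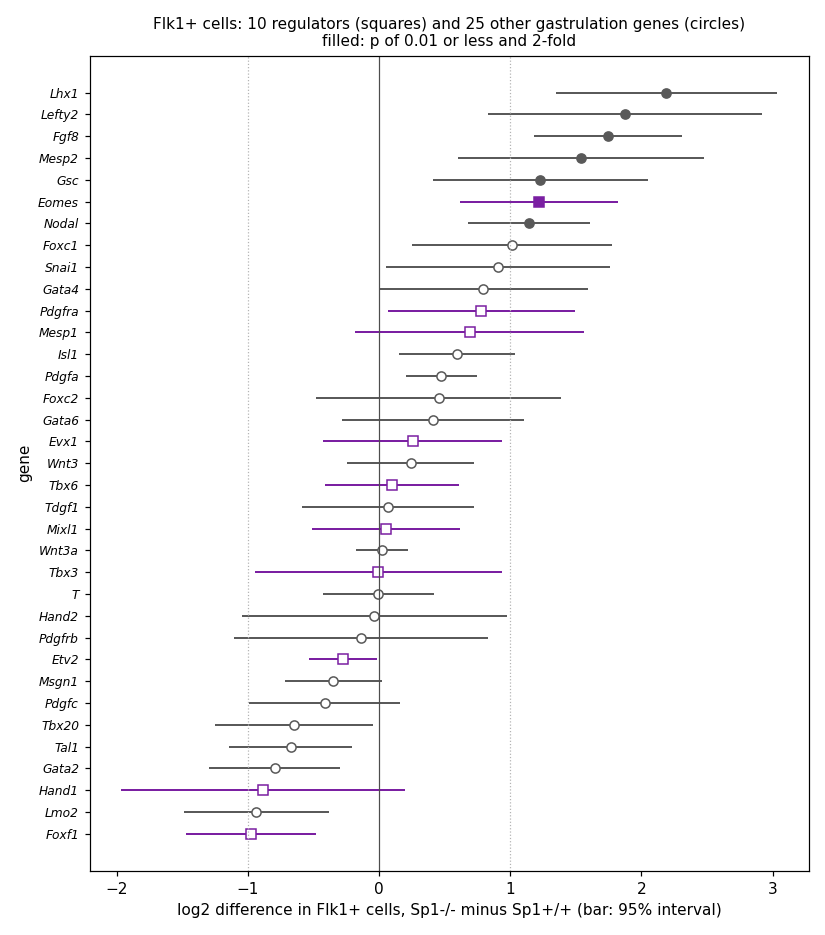
Log2 difference between Sp1-/- and Sp1+/+ Flk1+ cells (horizontal axis) for the 10 regulators (purple squares) and 25 other gastrulation genes (gray circles), ordered by size on the vertical axis, with 95% intervals. Filled symbols passed a p of 0.01 or less and 2-fold. All 7 filled symbols lie right of 0, from Nodal at 1.14 to Lhx1 at 2.19, with Eomes among them at 1.22.

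Markers of other cells moved with this comparison. Of 3 definitive endoderm markers, the forkhead factors Foxa2 (2.68, adjusted p = 0.000378) and Foxa1 (1.41, adjusted p = 0.000358) were higher in Sp1-/- Flk1+ cells, and Sox17 differed by 0.63 without a call. The log2 of the summed level of the 3 was 9.44 to 9.95 on the Sp1+/+ and 10.71 to 11.02 on the Sp1-/- arrays. Of 6 pluripotency markers, Esrrb was higher (1.52) and Dppa5a lower (-1.50), and their summed level was 14.14 to 14.37 on the Sp1+/+ and 12.99 to 13.47 on the Sp1-/- arrays. The summed level of 4 trophoblast markers was 12.44 to 12.69 and 11.44 to 11.66, with Gata3 lower, that of 4 cardiac markers at least 11.90 on the Sp1-/- arrays and below that on the Sp1+/+ arrays, with Myl7 higher and Myh6 lower, and that of 6 fibroblast markers 12.40 to 12.93 and 11.98 to 12.08, with Thy1 lower. None of 4 endothelial, 5 blood, 3 smooth muscle and 5 visceral endoderm markers was called, and the summed levels of each list overlapped between the genotypes. None of 3 neuroectoderm markers was called either, with sums of 11.28 to 11.36 and 10.78 to 11.15. In bulk RNA, a larger share of cells that express a gene and more RNA per cell cannot be told apart, and the part of these cell types in the Eomes difference was not tested.

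In HE1 none of the 10 regulators was called between the genotypes, where 2.09% of all genes were. At an unadjusted limma p under 0.05, 1 of them differed, Etv2, by -0.36 (adjusted p = 0.0768). The second Etv2 probe gave -0.62 (limma adjusted p = 0.0259 over 55595 probes), under 2-fold. Without Sp1-/- HE1 replicate 1, Hand1 was called in HE1 at -1.56, against -0.77 with it. In HE2 1 was called, where 1.95% of all genes were: Tbx3 was 10.09 and 9.65 in Sp1-/- and 10.45 and 11.94 in Sp1+/+ cells (-1.33 ± 0.42 SE, adjusted p = 0.109 by limma). This call was close to the threshold and was lost without any one of 13 of the 16 arrays. Hand1 differed by -1.17 in HE2 (adjusted p = 0.235), with Sp1-/- replicates of 9.58 and 8.20, and was called without Sp1-/- HE2 replicate 1 (-1.86) and without either Sp1-/- HE1 array (-1.17 in both cases). Eomes was higher there by 0.87 on both Sp1-/- arrays (adjusted p = 0.0982), but the second Eomes probe gave 0.28. Etv2 was lower in HE2 on both Sp1-/- arrays by -0.54 (limma adjusted p = 0.0191), under 2-fold. The second Etv2 probe gave -0.47 there (limma adjusted p = 0.108 over 55595 probes).

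In progenitors 2 of the 10 were called, both lower in Sp1-/- cells, where 4.1% of all genes were called in either direction. Hand1 was 6.73 and 6.46 on the Sp1-/- arrays and 10.57 and 10.17 on the Sp1+/+ arrays, a difference of -3.78 ± 0.49 (SE), or 13.7-fold (adjusted p = 0.000492). Tbx3 was 7.31 and 7.12 against 10.14 and 9.03, a difference of -2.37 ± 0.42 (SE), or 5.17-fold (adjusted p = 0.00369). Neither gene overlapped between the genotypes, which was also true of Kdr, a gene not called there. Both calls held in each of the 9 other settings and without any one of the 16 arrays. The sizes depend on the background offset, which compresses low levels such as those of the Sp1-/- arrays: from the processed signal the differences were -5.16 for Hand1 and -3.27 for Tbx3. Etv2 was lower on both Sp1-/- arrays by -0.47 ± 0.11 (SE, adjusted p = 0.0192), under 2-fold. Evx1 differed by -0.74 (adjusted p = 0.157) and Pdgfra by -0.50, and from the processed signal both were called (-2.10 and -2.86), while Mixl1 and Mesp1 were below background in both genotypes. Among the genes of the sort markers, Kit was called lower in Sp1-/- progenitors (-1.23, limma adjusted p = 0.0367). Tek (-1.04, limma adjusted p = 0.194) and Itga2b (0.145) were not called.

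The difference in Hand1 and Tbx3 came with markers of muscle and fibroblasts. All 3 smooth muscle markers were called lower in Sp1-/- progenitors. The smooth muscle actin gene Acta2 was 12.85 and 12.77 against 16.81 and 16.24 in Sp1+/+ progenitors, Tagln was 12.23 and 12.03 against 15.94 and 15.65, and Cnn1 was 8.07 and 7.99 against 12.09 and 11.89. Of 6 fibroblast and feeder markers 4 were called lower, which are the collagens Col1a1 (-4.70), Col1a2 (-3.32) and Col3a1 (-2.39) and Postn (-2.58). The summed smooth muscle level was 17.0 to 17.5 on the Sp1+/+ and 13.5 to 13.6 on the Sp1-/- arrays, and that of the fibroblast list 13.4 to 14.0 and 10.4 in Sp1-/- cells. Blood markers moved the other way, with a summed level of 14.9 to 15.4 in Sp1+/+ and 16.2 to 16.3 in Sp1-/- progenitors and Ptprc called higher, and the endothelial sum was 11.88 to 12.76 and 10.71 to 10.99 with Cdh5 called lower. Most lists of other cells were also lower in Sp1-/- progenitors. The neuroectoderm sum was 11.52 to 11.74 on the Sp1+/+ and 10.03 to 10.15 on the Sp1-/- arrays with Nes called lower, the trophoblast sum 9.68 to 10.11 and 9.19 to 9.34 with Gata3 lower, and the cardiac sum 9.57 to 10.04 and 8.86 to 9.15 with Nkx2-5 lower. The pluripotency sum was 10.27 to 10.42 and 10.06 to 10.12 with Dppa5a lower, and the definitive endoderm sum 8.18 to 9.99 and 7.83 to 7.87 with no gene called. The visceral endoderm sum was not lower, at 9.03 to 9.27 on the Sp1+/+ and 9.19 to 9.32 on the Sp1-/- arrays, with no gene called. No smooth muscle gene was called in HE1 or HE2, where the sums overlapped. The fibroblast sums also overlapped at both of these stages, with Lum called higher in Sp1-/- HE1 and no gene called in HE2. Of the cardiac markers, Tnnt2 and Myl7 were called higher in Sp1-/- HE1 and Nkx2-5 lower in Sp1-/- HE2. The part of all these cells in the Hand1 and Tbx3 difference was not tested.

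**Figure D5:**
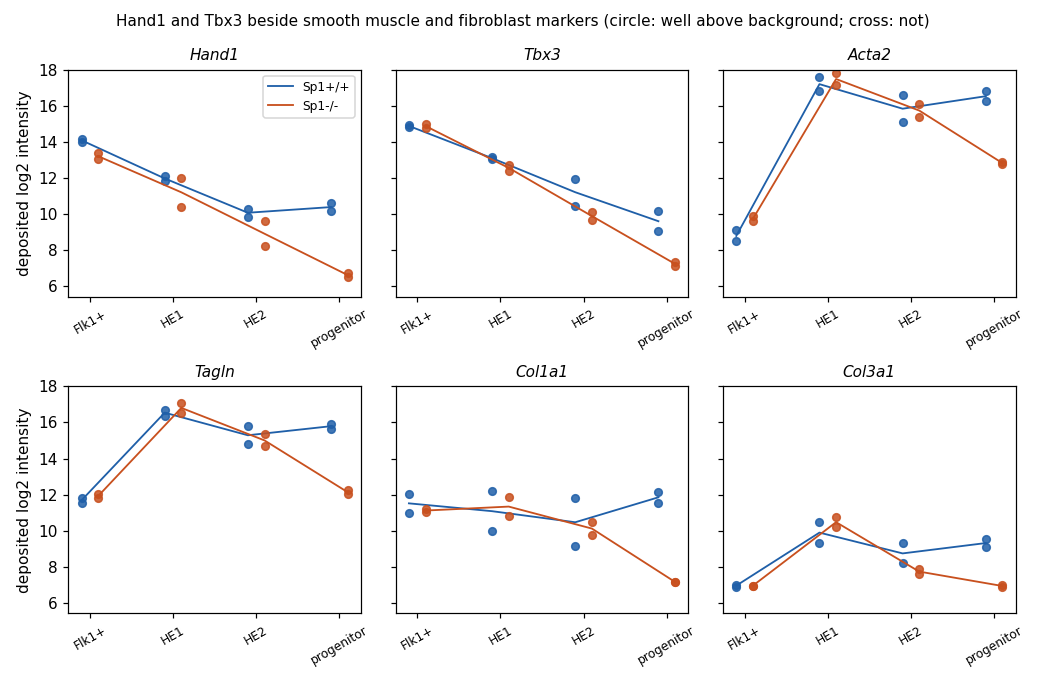
Deposited log2 intensity (vertical axis) of Hand1, Tbx3, the smooth muscle markers Acta2 and Tagln and the fibroblast markers Col1a1 and Col3a1 by population (horizontal axis), drawn as in the plot of all 10 regulators. All 6 genes are lower on both Sp1-/- progenitor arrays than on either Sp1+/+ one, while in HE1 the genotypes overlap for 5 of them and Tbx3 differs by -0.54.

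Whether the genotype difference itself changed with the stage was tested against Flk1+ cells. No regulator was called in HE1 or HE2 (1.6% and 1.67% of all genes were), where an unadjusted limma p under 0.05 was found for 1 (Eomes, adjusted p = 0.362) and 2 (Foxf1, adjusted p = 0.249, and Pdgfra, adjusted p = 0.44). In progenitors 2 were called, against 3.82% of all genes: Hand1 by -2.89 ± 0.69 (SE, adjusted p = 0.0361) and Tbx3 by -2.37 ± 0.60 (SE, adjusted p = 0.0473). The call of Tbx3 was lost without Sp1+/+ progenitor replicate 1 (-1.81). A further 4 had an unadjusted limma p under 0.05: Eomes (-1.08, adjusted p = 0.153), Evx1 (-0.99, adjusted p = 0.256), Foxf1 (0.95, adjusted p = 0.123) and Pdgfra (-1.27, adjusted p = 0.153). Pdgfra was called here with the replicate number as a block, from the processed signal (-3.62), at an offset of 16 (-1.67) and with no background correction (-1.53). Without Sp1+/+ Flk1+ replicate 1 the counts were 3 in HE1, 2 in HE2 and 5 in progenitors, with Mesp1 and Pdgfra called at all 3 stages, and without Sp1+/+ HE2 replicate 1 the count in HE2 was 2 (Foxf1 and Tbx3). For Etv2 the difference lay between -0.28 and -0.54 in all 4 populations by its brighter probe. None of the 3 tests of a change with stage gave that probe an unadjusted limma p under 0.05 (adjusted p from 0.609 to 0.898). The second Etv2 probe gave -0.215 in Flk1+ cells, -0.62 in HE1 and -0.47 in both later populations. Its change from Flk1+ to HE1 was -0.405 (limma adjusted p = 0.475 over 55595 probes).

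Genes with the most similar course over the 8 group means were sought for Eomes, Etv2 and Pdgfra among 20095 named genes, as a description. For Eomes they were Smg1 (Pearson r = 0.9987), Cdh4 (0.9966) and Gnao1 (0.9961), for Etv2 Cnnm1 (0.9955), Rora (0.9903) and Cdk2ap1 (0.9885), and for Pdgfra Tceal3 (0.9988), Evx1 (0.9973) and Zfp454 (0.9966). The 8 means share 2 slides and the drop from Flk1+ to HE1, and r takes no account of size: Smg1 covered 0.71 on the log2 scale, against 4.96 for Cdh4 and 7.76 for Evx1.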

How the data were processed

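RNA of 8 groups was measured on 16 arrays, 2 per group. The authors deposited a table of normalized log2 values and the scanner intensity of each spot with its local background. The study's supplement states limma normexp background correction with an offset of 16 and quantile normalization; an offset of 50 gave the deposited values to within 0.005 and an offset of 16 differed by up to 1.63. Feature Extraction was 10.7.1.1 per the labels and 10.7.3.1 per the file headers. The deposited log2 values, from 5.65 to 18.99, are the values used here; the offset compresses low levels. Array flags gave the spots well above background. Control and outlier spots were left out, spots of a probe were averaged, probes reaching 6 on at least 1 array were kept, and the brightest of a gene was used. Of 22232 RefSeq targets, 20869 matched a gene.

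In R 4.3.3, limma 3.58.1 was fitted with a mean for each of the 8 groups and gave the genotype difference in each population, the steps between populations and the change of the genotype difference against Flk1+ cells. Calls used the study's rule, an unadjusted p of 0.01 or less and 2-fold, with Benjamini-Hochberg values over all 37154 genes. The text names all 10 regulators, the sort markers, the called genes of the gastrulation list and the 3 genes most like each of 3 regulators. T, Tal1, Lmo2 and Gata2 of the gastrulation list are also named, though not called between the genotypes, as are cell type markers. For a gene below background on every array of 1 group, the fold is given as a bound, taken against its own signal or the lowest signal above background, whichever is higher. The model was checked on simulated data. The members and lists were chosen with earlier results of these data known. Alternatives were scanner values with other background correction or scaling, other filters, the mean over probes, a replicate block, adjusted p, fewer arrays in the fit, and leaving out each array. No depth applies to arrays, whose number limits precision.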

Additional observations from a re-analysis of the deposited data

Results flagged for a closer look

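The genotype difference of 2 regulators in progenitors differed from that in Flk1+ cells by a test of the difference itself. For Hand1 it was lower by -2.89 on the log2 scale (limma adjusted p = 0.0361), from -0.89 in Flk1+ cells to -3.78 in progenitors. For Tbx3 it was lower by -2.37 (limma adjusted p = 0.0473), from -0.01 to -2.37. Both Sp1-/- progenitor arrays lay below both Sp1+/+ ones for each gene.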

How the results depend on the processing

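Over 25 alternative settings no called difference of a regulator, or of the 6 gastrulation genes called in Flk1+ cells, changed direction. The other listed genes and the cell type markers were not followed through these settings. With the scanner values at an offset of 16, or with no background correction, 2 regulators were called in Flk1+ cells (Eomes and Foxf1) in place of 1, and at an offset of 16 the count in HE2 was 0 in place of 1. The processed signal scaled to the 75th percentile, which has no offset and spreads low levels, called 0 in Flk1+ cells, 2 in HE2, 4 in progenitors, 5 from HE1 to HE2 in Sp1+/+ cells and 5 at the last Sp1-/- step; the deposited values gave 1, 1, 2, 2 and 3. It called 1358, 2034, 1725 and 2965 of all genes in Flk1+ cells, HE1, HE2 and progenitors, against 611, 777, 725 and 1525, and shifted the median of all genes by up to 0.19. Its counts for the steps were 4857, 2040 and 1293 against 3177, 1230 and 647 in Sp1+/+ cells and 5319, 3406 and 3598 against 3526, 2084 and 1857 in Sp1-/- cells, and 948 against 595 for the change of the genotype difference in HE1. An adjusted p of 0.05 gave 0 regulators in HE2 and 1 from HE2 to progenitors in Sp1+/+ cells, and of all genes 264 against 595 and 294 against 619 for the change of the genotype difference in HE1 and HE2. Fitting only the arrays compared gave 0 regulators in Flk1+ cells and 0 in HE2, 1 at each of the later Sp1+/+ steps and 1 from HE1 to HE2 in Sp1-/- cells; the cause of these changes was not tested.

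Leaving out each array in turn gave 1 to 3 regulators between the genotypes for Flk1+ cells, 0 to 1 for HE1, 0 to 1 for HE2 and 2 for progenitors. The steps gave 8 to 9, 1 to 3 and 1 to 2 in Sp1+/+ cells and 7 to 9, 2 to 4 and 2 to 4 in Sp1-/- cells, and the change of the genotype difference 0 to 3 for HE1, 0 to 2 for HE2 and 1 to 5 for progenitors. Without Sp1+/+ Flk1+ replicate 1, 929 genes were called in Flk1+ cells and 930 for the change in HE1, and without Sp1-/- HE1 replicate 1 these were 1738 in HE1 and 1519. From HE2 to progenitors in Sp1+/+ cells the count over all genes was 974 without HE2 replicate 1 and 397 without progenitor replicate 2.

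The labels do not say that a replicate number marks a shared differentiation, and deviations of same-numbered arrays correlated between -0.17 and 0.50 over 28 pairs of groups, 11 of them above 0.1. With the replicate number as a block the count was 1 for Flk1+ cells, 0 for HE1, 0 for HE2 and 2 for progenitors, and 626, 795, 731 and 1541 genes were called in all. Crossing the numbers of Sp1-/- HE2 or of Sp1-/- progenitors, chosen after the data were seen, gave 0 regulators in HE2 and 2 in progenitors. The offset compresses levels near background, which touches Mixl1, Mesp1 and Foxf1 after the Flk1+ stage. It also touches Evx1 and Pdgfra in HE2 and progenitors, and Hand1 and Tbx3 in Sp1-/- progenitors.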
